A study of Mus musculus with 81 samples.

Results

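The 10 genes described here are the immediate early transcription factor genes Fos, Fosb, Jun, Junb, Egr1, Egr2, Egr3, Nr4a1 and Klf6, together with Ier2, taken by gene symbol from the 51826 genes of the deposited table. Each of the 10 symbols matched 1 gene, and all 10 passed the filter on low counts in both fits. RNA sequencing covered 81 libraries of thymic tissue, taken from 40 mice whose strain is given as C57BL/6 x 129S4Sv/Jae. Every animal, controls included, carried a Plk4 transgene at Col1a1, the rtTA transactivator at Rosa and a centrin-GFP reporter at Rosa. Plk4 is a kinase that controls how often centrioles duplicate, and doxycycline switches the transgene on through rtTA. The study's design text names the effect of aneuploidy on tumour development as its question.

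Thymic lymphomas came from 10 p53-/- mice that received no doxycycline (23 libraries), 9 p53-/- mice given doxycycline for 2 weeks from 30 days of age (18 libraries) and 12 p53+/- mice given the same treatment (31 libraries). Below, lymphomas of the first kind are called untreated p53-/-, and the others treated p53-/- and treated p53+/-. Normal thymuses came from 8 p53+/+ mice without doxycycline, and a further normal thymus, of p53+/- mouse 819, was joined to them only as an alternative. Males were 4 of the 8 mice with normal thymus, 9 of 10 untreated p53-/- mice, 4 of 9 treated p53-/- mice and 3 of 12 treated p53+/- mice, and the fits held labelled sex as a covariate. The labels give no age at tissue collection and do not say which cells express rtTA. In 13 tumours 4 or 5 regions were biopsied, giving 54 libraries, and the other 18 tumours gave 1 biopsy each. No lymphoma of untreated p53+/- mice was analysed here, so doxycycline and p53 genotype, with which the share of males also moved, cannot be told apart between untreated p53-/- and treated p53+/- lymphomas.

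Immediate early genes are transcribed within minutes of a stimulus without new protein synthesis. Signalling kinases act on ternary complex factors, serum response factor and CREB at their promoters, and the proteins they encode then set later transcription. Fos and Jun family proteins pair into AP-1, and Egr1, Egr2 and Egr3 are zinc-finger factors induced by the T-cell receptor that act in the selection of thymocytes. Nr4a1, the orphan receptor also called Nur77, follows receptor signal strength in thymocytes, Klf6 is a Krüppel-like zinc-finger factor, and Ier2 is a small nuclear protein of the first wave of induction.

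Library totals ran from 1030400 to 26871729 counts, and 4 libraries held fewer than 5000000. The labelled tissue was set against cell type markers as summed CPM, which are counts per 1000000 of the library total after TMM scaling, computed once over mice and once over libraries. In the normal thymuses 9 T-lineage markers summed to between 988 and 6730 CPM, and in the lymphoma groups to between 173 and 5149 CPM. The medians were 5427 CPM in normal thymus and 2891, 3651 and 3399 CPM in untreated p53-/- and in treated p53-/- and p53+/- lymphomas. Mice 387 and 881 stood apart. Normal thymus 387 had the low value of 988 CPM for T-lineage markers against 4640 CPM or more in the other 7, with 1460 CPM of B-lineage markers (at most 127 CPM in the others) and 12151 CPM of adipocyte markers. Untreated p53-/- tumour 881 had 173 CPM of T-lineage and 3334 CPM of B-lineage markers, against at least 1890 and at most 416 CPM in the other 9 tumours of its group. Results are given below with these mice, and without them beside the calls and directions that their removal changed. The sex label and the sex-linked genes pointed different ways in 3 mice.

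Sequences before the start sites are shown for the 4 members whose window held a match to a searched motif and no base of an annotated exon. Windows before RefSeq start sites (build GRCm38.p6) were searched for 7 of the 10 members. Egr1, Egr3 and Ier2 were not searched, so whether they hold these motifs is not known here. Capitals mark a CArG box (the binding motif of serum response factor), a short cAMP response element (TGACG, bound by CREB family proteins) or an EGR site (GCGNGGGCG), each searched on both strands. The sequences run 5′ to 3′ on the gene's strand over the 250 bases before the start. The Egr2 window is chr10:67537619-67537868 on the plus strand and that of Fos is chr12:85473640-85473889 on the plus strand. For Junb it is chr8:84978749-84978998 on the minus strand, and for Nr4a1 chr15:101266596-101266845 on the plus strand.
Egr2: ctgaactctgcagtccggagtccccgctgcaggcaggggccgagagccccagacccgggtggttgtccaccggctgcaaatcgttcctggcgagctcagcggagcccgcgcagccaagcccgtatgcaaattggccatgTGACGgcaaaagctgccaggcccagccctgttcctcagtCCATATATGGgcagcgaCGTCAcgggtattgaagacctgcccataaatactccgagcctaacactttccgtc
Fos: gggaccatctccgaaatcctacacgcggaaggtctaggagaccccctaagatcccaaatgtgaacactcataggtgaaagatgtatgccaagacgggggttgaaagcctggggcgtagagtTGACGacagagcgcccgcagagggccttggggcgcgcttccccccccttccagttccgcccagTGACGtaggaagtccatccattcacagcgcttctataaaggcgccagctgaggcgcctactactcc
Junb: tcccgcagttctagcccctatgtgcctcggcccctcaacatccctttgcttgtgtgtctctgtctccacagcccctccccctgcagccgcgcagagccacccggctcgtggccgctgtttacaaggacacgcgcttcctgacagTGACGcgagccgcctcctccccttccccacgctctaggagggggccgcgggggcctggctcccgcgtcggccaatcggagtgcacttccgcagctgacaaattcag
Nr4a1: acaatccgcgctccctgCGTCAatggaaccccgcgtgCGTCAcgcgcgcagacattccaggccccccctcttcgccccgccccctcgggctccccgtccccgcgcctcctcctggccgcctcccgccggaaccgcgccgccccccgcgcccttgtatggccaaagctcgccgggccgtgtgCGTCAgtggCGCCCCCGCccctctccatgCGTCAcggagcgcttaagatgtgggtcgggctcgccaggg

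The Egr2 window held a CArG box, CCATATATGG, at positions -72 to -63 and short cAMP response elements at -111 to -107 and -55 to -51. Of the 5 RefSeq start sites listed for Egr2, 4 had a CArG box in the window, and 3 of those windows overlap and hold the same box. Over all 32851 windows of this length in the table, 1.47% held a CArG box, 17.8% a short cAMP response element and 4.7% an EGR site. The short element occurred in the windows of 5 of the 7 members (Fos, Fosb, Junb, Egr2 and Nr4a1), and in Nr4a1 it occurred 4 times. An EGR site lay at -60 to -52 in Nr4a1 and at -50 to -42 in Fosb. No full cAMP response element (TGACGTCA, in 1.55% of all windows) and no AP-1 site (TGANTCA, in 6.75%) was in the windows chosen for the 7 members. The RefSeq starts shown for Egr2 and Nr4a1 lie 2394 and 12577 bases inside the gene from its GENCODE start, so they are internal starts. For Egr2 the window shown was, of those free of exon bases, the one with the most matches, and the window nearest the GENCODE start, chr10:67535249-67535498, held none of the motifs. These are matches of letters in 1 window and no test of binding.

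On GRCm38 (GENCODE M21, all protein coding) Fos lies at chr12:85473890-85477273, Fosb at chr7:19302696-19310051, Jun at chr4:95049034-95052222 and Junb at chr8:84974484-84978718. Egr1 lies at chr18:34859823-34864984, Egr2 at chr10:67535475-67542188 and Egr3 at chr14:70077203-70082614. Nr4a1 lies at chr15:101254269-101274795, Ier2 at chr8:84661331-84662852 and Klf6 at chr13:5861482-5870394. Levels in normal thymus were compared between genes after division by exon length. Junb, Egr1, Ier2, Klf6 and Nr4a1 had median levels of 20.3, 19.5, 18.4, 18.4 and 16.8 CPM per kb of exon over the 8 mice, with ranges that overlapped from gene to gene. Jun followed at 7.50 and Egr2 at 5.30 CPM per kb, again with overlapping ranges (4.79 to 18.6 and 2.17 to 6.21). The lowest were Fos at 1.61, Egr3 at 0.658 and Fosb at 0.182 CPM per kb. The order in treated p53-/- lymphomas was led by Junb at 8.15 and Ier2 at 7.26 CPM per kb, and Egr2 had dropped to 0.407 CPM per kb, below Fos at 1.41. The p53+/- normal thymus lay within the range of the 8 p53+/+ thymuses for all 10 members.

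Where members passed the test against normal thymus they were lower in the lymphomas, with the most calls in treated p53-/- tumours. At an adjusted p under 0.05 in edgeR's quasi-likelihood test over 17843 genes, 3 of 10 members were lower in untreated p53-/-, 9 of 10 in treated p53-/- and 5 of 10 in treated p53+/- lymphomas, and none was higher. The share of all genes called lower was 17.5%, 26.7% and 25.3% in the same order, and the share called higher was 23.2%, 25.4% and 25.6%. The median log2 fold change of the 10 members was -0.74, -1.67 and -0.77, beside medians over all genes of 0.08, -0.04 and 0.00. Every tumour lay below every normal thymus for 1 member in untreated p53-/- (Klf6; 4.14% of all genes), for 4 in treated p53-/- (Fosb, Junb, Egr2 and Klf6; 8.97%) and for 2 in treated p53+/- lymphomas (Egr2 and Klf6; 5.51%). The 3 comparisons share the 8 normal thymuses, so their counts are not independent of each other. Without mice 387 and 881 the counts were 3, 8 and 5. In bulk tissue fewer cells of a type and less RNA per cell cannot be told apart.

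**Figure D1:**
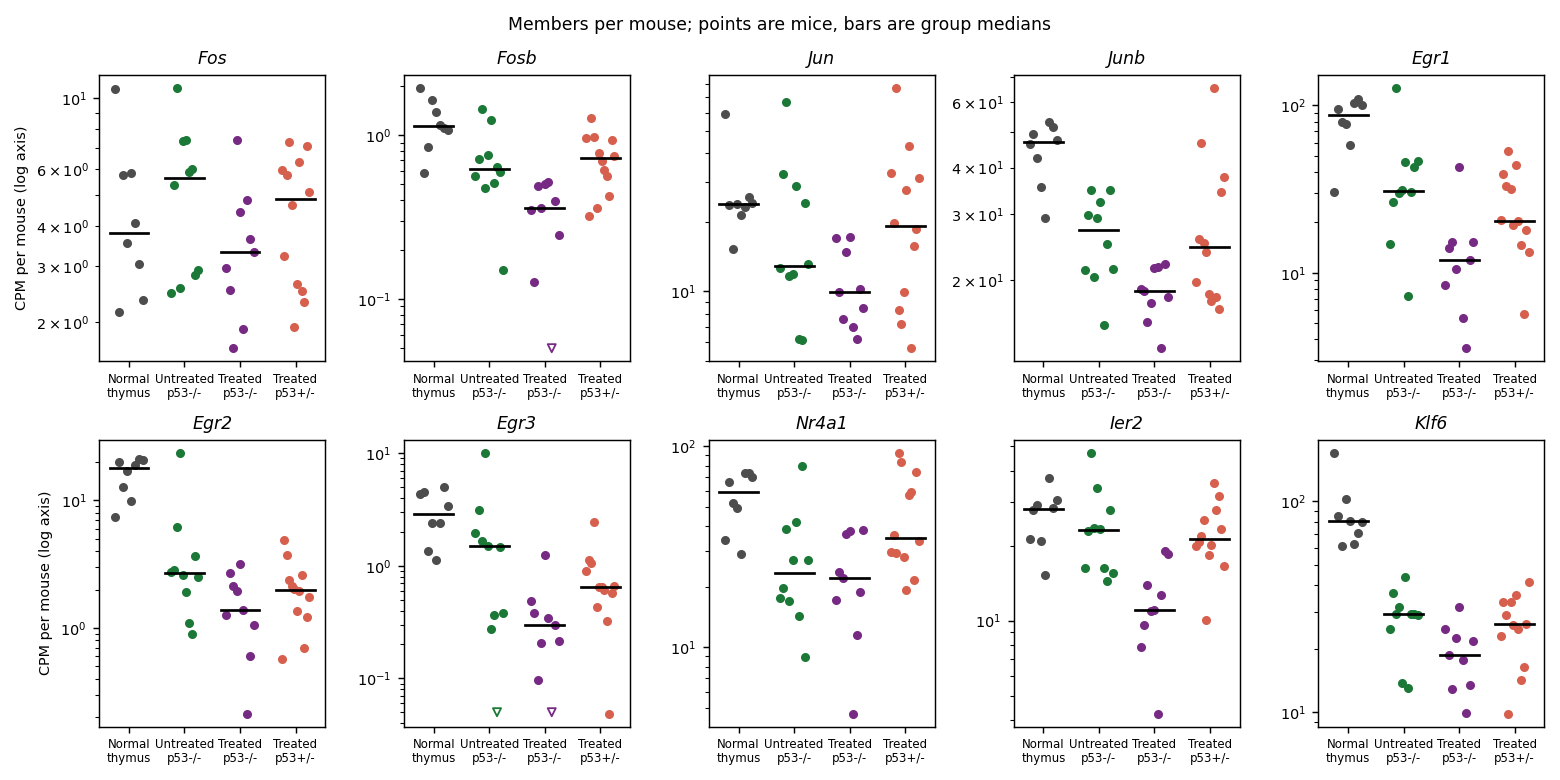
CPM per mouse on a log axis for the 10 members in the 8 normal thymuses and the lymphomas of 10 untreated p53-/- mice and of 9 p53-/- and 12 p53+/- mice given doxycycline, biopsies of a tumour being summed. Points are mice, black bars are medians, and open triangles at the foot mark mice with a count of 0 (Fosb in 857, Egr3 in 643 and 857); Klf6 and, apart from tumour 202, Egr2 sit below the normal thymuses.

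With all mice in the fit, Egr2 showed the widest drop of the 10 in each lymphoma group. Its lead was within its SE over Klf6 in untreated p53-/- and over Egr3 in treated p53-/- lymphomas. Its level was 7.37, 18 and 21.1 CPM (lowest, median and highest) in normal thymus, 0.897, 2.68 and 23.5 CPM in untreated p53-/-, 0.214, 1.38 and 3.18 CPM in treated p53-/- and 0.573, 1.99 and 4.90 CPM in treated p53+/- lymphomas. All 9 treated p53-/- and all 12 treated p53+/- tumours were below every normal thymus, as were 9 of 10 untreated tumours. The tenth, tumour 202, was above every normal thymus at 23.5 CPM, while the next highest untreated tumour had 6.13 CPM. The log2 fold change against normal thymus was -1.93 ± 0.52 (SE; edgeR adjusted p = 0.003) in untreated p53-/- lymphomas and -2.67 (adjusted p = 1.06e-05) without tumour 202. It was -3.33 ± 0.54 (edgeR adjusted p = 3.83e-06) in treated p53-/- and -2.93 ± 0.47 (edgeR adjusted p = 3.99e-06) in treated p53+/- lymphomas. In the 4 multifocal untreated tumours alone, which include 202, the value was -0.88 (edgeR adjusted p = 0.295). There Klf6 (-1.76), Nr4a1 (-1.23) and Fosb (-1.21) had larger drops.

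Egr3, the partner of Egr2 in receptor-induced responses, was lower in both treated groups. Normal thymuses had 1.12, 2.90 and 5.02 CPM (lowest, median and highest), treated p53-/- lymphomas 0, 0.301 and 1.26 CPM and treated p53+/- lymphomas 0.0487, 0.649 and 2.44 CPM. Below every normal thymus were 8 of 9 and 10 of 12 of these tumours, and the log2 fold changes were -3.16 ± 0.71 (SE; edgeR adjusted p = 0.000358) and -2.09 ± 0.61 (edgeR adjusted p = 0.00482). Untreated p53-/- lymphomas spread from 0 to 10.1 CPM around a median of 1.49 CPM, and only 4 of 10 were below the normal range. Their log2 fold change of -0.41 ± 0.67 did not pass the test (edgeR adjusted p = 0.65). Tumour 202 again had the highest level of its group, 10.1 CPM against at most 3.15 CPM in the other 9, and without it the value was -1.18 (edgeR adjusted p = 0.119). A count of 0, seen in tumours 643 and 857, allows up to 0.385 and 0.322 CPM for a limit of 3 counts, counting error only.

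For Egr1 the normal thymuses ranged from 30.4 to 109 CPM with a median of 87.7 CPM, and the lowest of them was mouse 387. Treated p53-/- lymphomas had 3.54, 11.9 and 42.7 CPM (lowest, median and highest) and treated p53+/- lymphomas 5.70, 20.5 and 53.6 CPM. Against normal thymus Egr1 fell, with a log2 fold change of -2.61 ± 0.45 (SE; edgeR adjusted p = 1.15e-05) in treated p53-/- and -1.75 ± 0.41 (edgeR adjusted p = 0.000525) in treated p53+/- lymphomas. Untreated p53-/- lymphomas had 7.22, 30.8 and 128 CPM, overlapping the normal range at both ends, and the log2 fold change of -0.99 ± 0.44 missed the threshold (edgeR adjusted p = 0.0695). The highest, tumour 157, exceeded every normal thymus. Without it the value was -1.38 and passed (edgeR adjusted p = 0.00695), and without treated p53-/- tumour 659 in the same fit it was -1.08 (edgeR adjusted p = 0.0328). It also passed with DESeq2 (adjusted p = 0.0488), with limma voom (-1.37, adjusted p = 0.00407), without the sex covariate (-1.07, edgeR adjusted p = 0.0335) and with thymus 819 joined to the normal group (-1.02, edgeR adjusted p = 0.0456).

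Klf6 was lower in all 3 lymphoma groups and was the member that separated them from normal thymus in full. Normal thymuses had 61.6, 80.6 and 170 CPM (lowest, median and highest), untreated p53-/- lymphomas 13, 29.1 and 44.0 CPM, treated p53-/- lymphomas 9.87, 18.7 and 31.5 CPM and treated p53+/- lymphomas 9.86, 26.1 and 41.5 CPM. No tumour reached the lowest normal thymus. The log2 fold changes were -1.69 ± 0.27 (SE; edgeR adjusted p = 5.06e-06), -2.27 ± 0.27 (edgeR adjusted p = 1.72e-08) and -1.84 ± 0.24 (edgeR adjusted p = 1.04e-07). Without normal thymus 387, which held the 170 CPM, they were -1.43, -1.93 and -1.50.

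The AP-1 members differed among themselves. Junb, which among Jun proteins often restrains AP-1, had 29.3, 46.8 and 52.9 CPM in normal thymus (lowest, median and highest), 15.1, 27.2 and 34.9 CPM in untreated p53-/-, 13.1, 18.7 and 22.1 CPM in treated p53-/- and 16.7, 24.5 and 65.6 CPM in treated p53+/- lymphomas. It fell in all 3 groups, with log2 fold changes of -0.73 ± 0.23 (SE; edgeR adjusted p = 0.0103), -1.31 ± 0.23 (edgeR adjusted p = 1.05e-05) and -0.69 ± 0.21 (edgeR adjusted p = 0.00657). The treated p53+/- tumour at 65.6 CPM, number 884, was the only tumour above the normal range. With multifocal tumours alone, Junb missed the threshold in untreated p53-/- (-0.64, edgeR adjusted p = 0.186) and in treated p53+/- lymphomas (-0.46, edgeR adjusted p = 0.191).

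Jun, the partner of Fos in AP-1, was called lower in treated p53-/- lymphomas. Its level was 15.3, 23.9 and 59.3 CPM in normal thymus (lowest, median and highest), 6.15, 12.9 and 66.9 CPM in untreated p53-/-, 6.22, 9.97 and 17.2 CPM in treated p53-/- and 5.66, 19.3 and 77.1 CPM in treated p53+/- lymphomas. The treated p53-/- range lay mostly below normal, with 7 of 9 tumours under every normal thymus, and gave a log2 fold change of -1.40 ± 0.44 (SE; edgeR adjusted p = 0.00808). The call was lost without normal thymus 387, which held the 59.3 CPM while the other 7 had at most 25.7 CPM: without it the value was -1.04 (edgeR adjusted p = 0.0529). With single-biopsy tumours alone it was -1.22 (edgeR adjusted p = 0.0591). The other groups straddled the normal range, at -0.16 ± 0.45 (edgeR adjusted p = 0.801) in untreated p53-/- and -0.28 ± 0.41 (edgeR adjusted p = 0.587) in treated p53+/- lymphomas. Both values turned positive without mouse 387, to 0.10 and 0.09.

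Fosb was a low-level gene, with 5 to 33 counts per normal thymus. It had 0.586, 1.13 and 1.95 CPM in normal thymus (lowest, median and highest) and 0, 0.360 and 0.519 CPM in treated p53-/- lymphomas, where every tumour was below every normal thymus. The log2 fold change there was -1.94 ± 0.41 (SE; edgeR adjusted p = 0.000192). Untreated p53-/- lymphomas had 0.151, 0.619 and 1.44 CPM and treated p53+/- lymphomas 0.322, 0.723 and 1.28 CPM. Their values of -0.79 ± 0.40 (edgeR adjusted p = 0.113) and -0.86 ± 0.37 (edgeR adjusted p = 0.0546) did not pass. With DESeq2 both passed (-0.87, adjusted p = 0.0478, and -0.88, adjusted p = 0.0221). The second also passed in edgeR when any of mice 24, 157, 266, 615, 663 or 899 was left out (adjusted p from 0.0337 to 0.0494), with 1 biopsy per tumour (adjusted p = 0.029), with only the 2 groups fitted (0.0458), with RLE size factors (0.0484), without a scaling factor (0.0425) and with thymus 819 joined (0.048). Without normal thymus 387 it was -0.58 (edgeR adjusted p = 0.239).

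Fos did not pass the test in any group. Normal thymuses had 2.15, 3.80 and 10.7 CPM (lowest, median and highest), untreated p53-/- lymphomas 2.46, 5.64 and 10.8 CPM, treated p53-/- lymphomas 1.66, 3.31 and 7.40 CPM and treated p53+/- lymphomas 1.94, 4.86 and 7.33 CPM. The ranges overlapped throughout. The log2 fold changes were 0.27 ± 0.38 (SE; edgeR adjusted p = 0.597), -0.48 ± 0.37 (edgeR adjusted p = 0.28) and -0.19 ± 0.35 (edgeR adjusted p = 0.673). Mouse 387 had the 10.7 CPM, and without it the treated p53+/- value became 0.27.

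Nr4a1 and Ier2 were called lower in treated p53-/- lymphomas. With all mice in the fit, sex as covariate and TMM scaling, neither passed in the other groups. Nr4a1 had 29.1, 58.9 and 73.6 CPM in normal thymus (lowest, median and highest) and 4.67, 22 and 38.3 CPM in treated p53-/- lymphomas, with 6 of 9 tumours below every normal thymus and a log2 fold change of -1.39 ± 0.37 (SE; edgeR adjusted p = 0.00224). Its level in treated p53+/- lymphomas ran from 19.3 to 92.5 CPM around a median of 34.8 CPM, with 3 of 12 tumours below and 3 above every normal thymus (-0.45 ± 0.35, edgeR adjusted p = 0.294). In untreated p53-/- lymphomas it ran from 8.94 to 79.9 CPM around 23.4 CPM, with 7 of 10 tumours below every normal thymus (-0.75 ± 0.38, edgeR adjusted p = 0.106). The lowest of these was tumour 881 and the highest tumour 643, and without tumour 643 the value was -1.02 and passed (edgeR adjusted p = 0.0178). Nr4a1 also passed there with limma voom (-1.13, adjusted p = 0.0171), in multifocal tumours alone (-1.23, edgeR adjusted p = 0.0387), without a scaling factor (-1.05, edgeR adjusted p = 0.0212) and without the sex covariate (-0.96, edgeR adjusted p = 0.0298).

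Ier2 had 15.3, 28.1 and 37.4 CPM in normal thymus and 4.24, 11 and 19.1 CPM in treated p53-/- lymphomas (lowest, median and highest). There 7 of 9 tumours were under every normal thymus, and the log2 fold change was -1.21 ± 0.24 (SE; edgeR adjusted p = 9.19e-05). Across the 3 multifocal tumours alone it was -0.68 (edgeR adjusted p = 0.0531). The other groups had medians of 23 CPM (untreated p53-/-) and 21.3 CPM (treated p53+/-) within the normal range, and values of -0.06 ± 0.25 (edgeR adjusted p = 0.872) and -0.34 ± 0.23 (edgeR adjusted p = 0.218). The first became 0.00 without mouse 387 (edgeR adjusted p = 0.998).

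**Figure D2:**
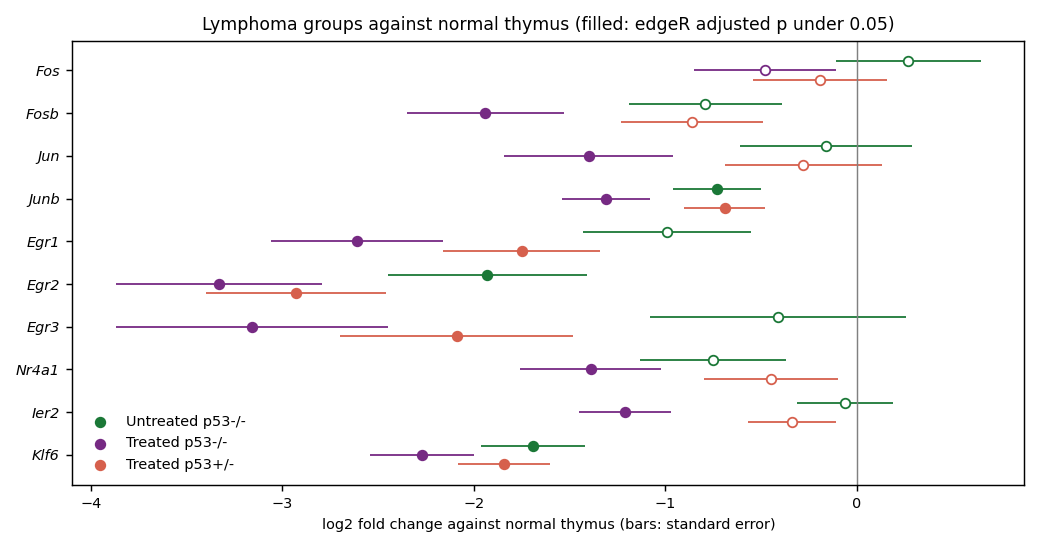
Log2 fold change against 8 normal thymuses (horizontal axis) for each member, by lymphoma group, with the edgeR standard error as bars; filled points have an adjusted p under 0.05. The treated p53-/- points, from -0.48 (Fos) to -3.33 (Egr2), lie farthest left for every member.

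The median log2 fold change of all tested genes on the chromosomes of the 10 members lay between -0.40 (chromosome 7, which carries Fosb) and 0.42 (chromosome 15, which carries Nr4a1). For Egr2 on chromosome 10 the medians were 0.14, -0.22 and -0.11 in untreated p53-/- and in treated p53-/- and p53+/- lymphomas. For Klf6 on chromosome 13 they were 0.00, -0.12 and -0.09. For Jun on chromosome 4 they were 0.27, 0.25 and 0.38, the first and last larger in size than Jun's own values of -0.16 and -0.28 and opposite in sign.

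Cell type markers also differed between the groups. Thymic epithelial markers (6 genes) summed to a median of 1335 CPM in normal thymus and 53.3, 44.9 and 34.1 CPM in untreated p53-/- and in treated p53-/- and p53+/- lymphomas, with Foxn1 and Psmb11 at 0 in some tumours of each group. Adipocyte markers (5 genes) summed to between 823 and 12151 CPM in normal thymus and between 37.2 and 227 CPM in the lymphomas, and all 5 were called lower in each group. B-lineage markers summed to a median of 109 CPM in normal thymus and 17.1, 17.2 and 21.4 CPM in the lymphoma groups in the same order. They were called lower for 0 of 6, 6 of 6 and 5 of 6 genes, and the untreated group, with no call, holds tumour 881 at 3334 CPM. Neutrophil markers, at a median of 24.6 CPM in normal thymus and 4.25, 2.94 and 3.23 CPM in the lymphomas, were called lower for 1, 4 and 4 of 4 genes. Endothelial markers were called lower for 3, 2 and 4 of 6 genes, with medians of 230 CPM in normal thymus and 139, 194 and 152 CPM in the lymphomas, and 1 was called higher in treated p53-/- lymphomas. Fibroblast markers had medians of 271 CPM in normal thymus and 495, 545 and 429 CPM in the lymphomas, with 2, 1 and 1 of 6 genes called higher and 1, 2 and 1 lower. Erythroid markers had medians of 707 CPM in normal thymus and 277, 162 and 109 CPM in the lymphomas, and 0, 1 and 2 of 4 tested genes were called lower. Macrophage and myeloid markers were called lower for 0, 1 and 0 of 7 genes. Counts from mitochondrial genes made up 3.85% to 13.12% of a normal thymus and 0.68% to 6.22% of a lymphoma. What part any of these has in the members' lower levels was not tested.

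The lymphoma groups were then set against each other in a fit without normal thymuses, over 16389 genes. No member passed an adjusted p of 0.05 in edgeR in any of the 3 comparisons, nor did any other gene (0%). All 10 members were lower in treated than in untreated p53-/- lymphomas, and 8 had an unadjusted p under 0.05, as had 11.7% of all genes. The median log2 fold change of the members was -1.17, beside -0.06 over all genes. The smallest unadjusted p belonged to Ier2, with medians of 11 and 23 CPM and a log2 fold change of -1.15 ± 0.28 (SE, edgeR adjusted p = 0.209, DESeq2 adjusted p = 0.0177). The share of all genes that passed with DESeq2 is not given here. Egr3 (-2.72 ± 0.83, edgeR adjusted p = 0.279) and Egr1 (-1.68 ± 0.54, edgeR adjusted p = 0.283) had the largest differences. Leaving out tumour 202 moved Egr3 to -2.0 and Egr2 from -1.32 to -0.62. Over 10 alternatives of processing and sample sets, Egr2 ran from -3.99 to -0.25, Egr3 from -4.22 to -1.65 and Egr1 from -2.78 to -1.40.

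Between treated p53+/- and treated p53-/- lymphomas all 10 members were higher in the p53+/- tumours, with a median log2 fold change of 0.87 against 0.03 over all genes. An unadjusted p under 0.05 was reached by 5 members (Fosb, Jun, Junb, Nr4a1 and Ier2) and by 5.27% of all genes. Ier2 had the smallest, at 0.87 ± 0.24 (SE; edgeR adjusted p = 0.934). Treated p53+/- against untreated p53-/- lymphomas gave 8 negative and 2 positive values with a median of -0.20, and 1 member, Egr3 (-1.64 ± 0.76, edgeR adjusted p = 0.777), had an unadjusted p under 0.05, against 6.33% of all genes. Without tumour 202 the Egr3 value was -0.93 (edgeR adjusted p = 0.941). Each group serves in 2 of these comparisons, so the treated p53-/- tumours enter both of those in which the 10 values had 1 sign.

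Within tumours the members varied less between biopsies than between animals. Over the 54 biopsies of 13 multifocal tumours, the share of the variance of log2 CPM that lay between tumours was 74.1% in the median over the members, beside 69.4% over 17843 genes. It was highest for Egr2 (84.5%), Egr1 (81.2%) and Egr3 (80.1%) and lowest for Fos (54.9%), Ier2 (63.6%) and Fosb (64.1%). The SD within tumours had a median of 0.50 log2 units for the members and 0.41 for all genes, and was smallest for Ier2 (0.35) and Klf6 (0.37). Biopsies of 1 tumour are not replicates, so these shares carry no test. Restricted to biopsies with at least 5000000 counts, the share fell to 42.8% for Fosb and to 72.7% for Egr1.

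Tumour 202 carried its high Egr2 and Egr3 throughout. Its 4 biopsies had 15.1, 21.2, 23.5 and 28.3 CPM of Egr2 and 9.14, 8.90, 9.0 and 10.7 CPM of Egr3. All 4 exceeded every biopsy of the other 12 multifocal tumours, in which Egr2 reached 6.26 CPM and Egr3 2.69 CPM. Egr1 in the same biopsies, at 24.4 to 33.7 CPM, and Nr4a1, at 13.5 to 17.6 CPM, were within the range of the other untreated tumours. Its summed thymic epithelial markers were the highest of the untreated group at 352 CPM and its T-lineage markers were 1890 CPM.

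Tumour 884, treated p53+/-, was split between its biopsies. Junb was 115, 74.8 and 101 CPM in biopsies 5, 6 and 8 and 24.2 CPM in biopsy 2. Fos followed Junb, at 8.18, 8.01 and 9.59 CPM against 2.53 CPM, while Jun went the other way, with 27.4, 28.6 and 29.6 CPM against 63.6 CPM in biopsy 2. Egr1 stayed between 14.6 and 22.2 CPM in the 4 biopsies. The Junb range of 2.33 log2 units in this tumour was the widest of the 13, whose median was 0.89.

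Other tumours varied in the Egr genes and Klf6. In treated p53+/- tumour 862 Egr1 was 34.7, 15.4, 16, 73.3 and 58.5 CPM over 5 biopsies, a range of 2.19 log2 units. The 2 highest biopsies also had the highest Egr3, 1.32 and 1.02 CPM against at most 0.236 CPM in the other 3. Biopsy 3 of treated p53-/- tumour 869 had the highest Egr2 (1.67 CPM against at most 0.509 CPM), Klf6 (31.3 against at most 10.2 CPM) and Junb (37.9 against at most 21.3 CPM). Tumours 894 and 903 were the most even in the members, with 1 of 10 each ranging over more than 1 log2 unit, while 870 had 8 and 908 had 7. The share of all genes ranging as widely in each tumour was not computed, so these counts may hold for other genes too. The 4 biopsies of tumour 857, with a count of 0 for Fosb and Egr3 in each, included the shallowest libraries, where a count of 0 allows up to 3.26 CPM.

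**Figure D3:**
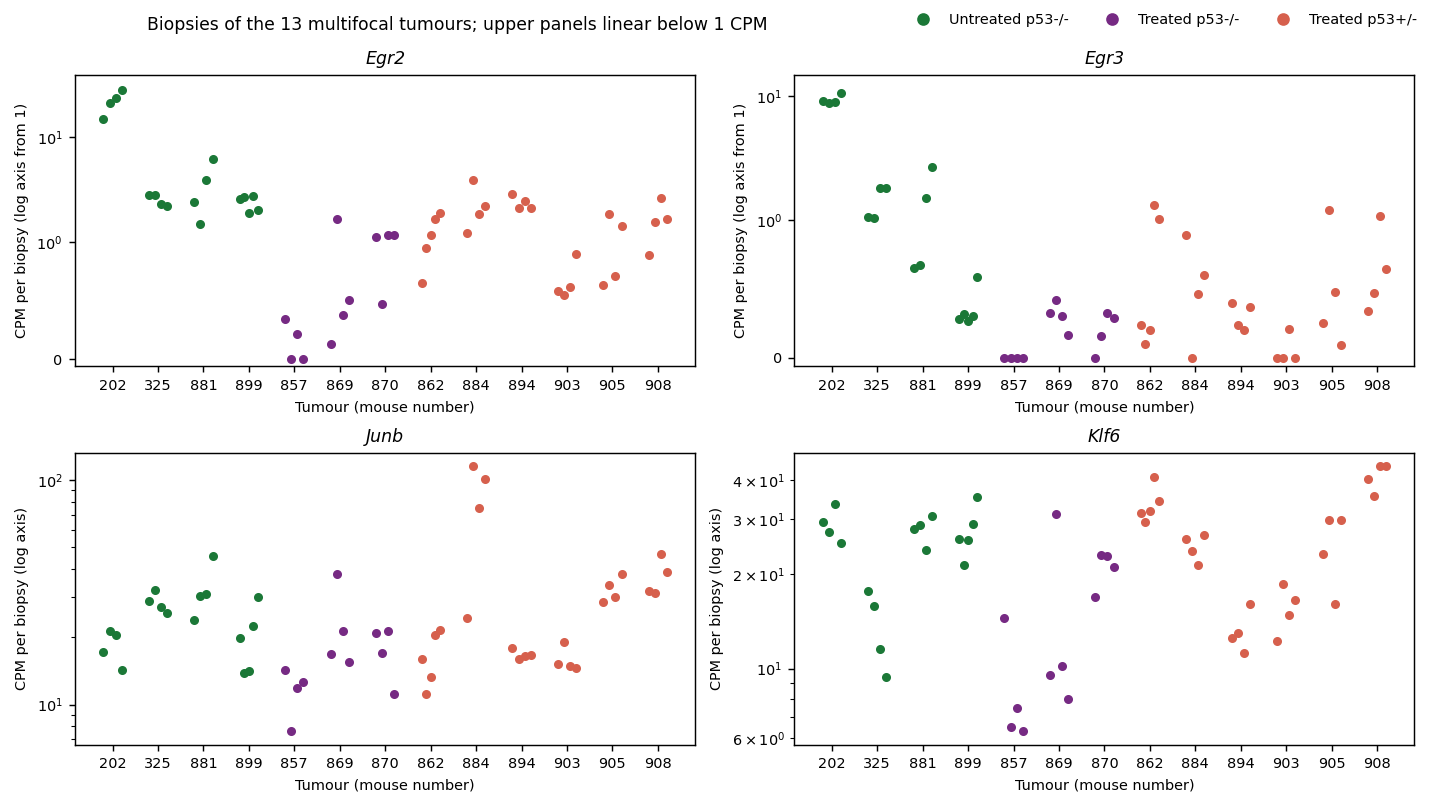
CPM per biopsy of Egr2, Egr3, Junb and Klf6 in the 13 multifocal tumours (horizontal axis, mouse number), coloured by group; the lower panels have a log axis and the upper panels a log axis that is linear below 1 CPM so that counts of 0 can be shown. Tumour 202 stands above the other tumours for Egr2 and Egr3, and 3 of 4 biopsies of tumour 884 stand above all others for Junb.

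Levels of the members were then compared from tumour to tumour. Over the 31 lymphoma mice, 43 of 45 pairs of members (95.6%) had a positive Pearson's r of log2 CPM, as had 49.8% of all pairs of 16389 genes, and the median r was 0.41 beside 0.00. An adjusted permutation p under 0.05 was reached by 23 pairs, all with r of at least 0.41, a value that 4.81% of all gene pairs reached, and 20 of the 23 also passed by Spearman's rho. With values taken as deviations from the mean of the lymphoma group, 40 pairs were positive, the median r was 0.25 and 5 pairs passed. Of all gene pairs in that setting 49.9% were positive, with a median r of 0.00. The 5 pairs had r of at least 0.52, which 1.61% of all gene pairs reached. The values that follow were taken without that step. The highest were Egr2 with Egr3 (r = 0.75, permutation p = 1e-05, adjusted p = 0.00045; rho = 0.70, permutation p = 4e-05, adjusted p = 0.0018), Jun with Junb (r = 0.69, permutation p = 2e-05, adjusted p = 0.00045; rho = 0.59, permutation p = 0.00068, adjusted p = 0.00891) and Egr1 with Egr2 (r = 0.61, permutation p = 0.00026, adjusted p = 0.0039; rho = 0.56, permutation p = 0.00099, adjusted p = 0.00891). A p of 1e-05 is the smallest the 100000 resamples can give. Without the 2 mice farthest from the median of the first gene, r was 0.58, 0.61 and 0.45. Within untreated p53-/- and in treated p53-/- and p53+/- lymphomas r was 0.84, 0.69 and 0.49 for Egr2 with Egr3, 0.76, 0.47 and 0.62 for Jun with Junb and 0.34, 0.73 and 0.55 for Egr1 with Egr2.

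Fewer pairs also passed within sampling types. Within the 18 single-biopsy tumours 5 pairs passed, and within the 13 multifocal tumours 1 pair. No share over all gene pairs was computed within sampling types. Egr2 with Egr3 had r = 0.51 over single-biopsy and 0.92 over multifocal tumours, and Jun with Junb 0.71 and 0.75.

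Nr4a1, which like Egr2 and Egr3 is induced by the T-cell receptor, showed no such relation to them. It did pass with Egr1 (r = 0.45, adjusted permutation p = 0.0284, rho = 0.45, adjusted permutation p = 0.0268) and with Fos (r = 0.50, adjusted permutation p = 0.0141, rho = 0.54, adjusted permutation p = 0.0128). The r with Egr1 was 0.71 over single-biopsy and 0.01 over multifocal tumours. With Egr2 it had r = 0.08 (permutation p = 0.667, adjusted p = 0.732; rho = 0.08, permutation p = 0.667, adjusted p = 0.714; 0.08 without the 2 farthest mice). With Egr3 it had r = -0.03 (permutation p = 0.862, adjusted p = 0.862; rho = 0.00, permutation p = 0.999, adjusted p = 0.999; 0.20 without the 2 farthest mice). Within untreated p53-/- and in treated p53-/- and p53+/- lymphomas r was -0.36, 0.41 and 0.31 with Egr2 and -0.64, 0.26 and 0.33 with Egr3.

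**Figure D4:**
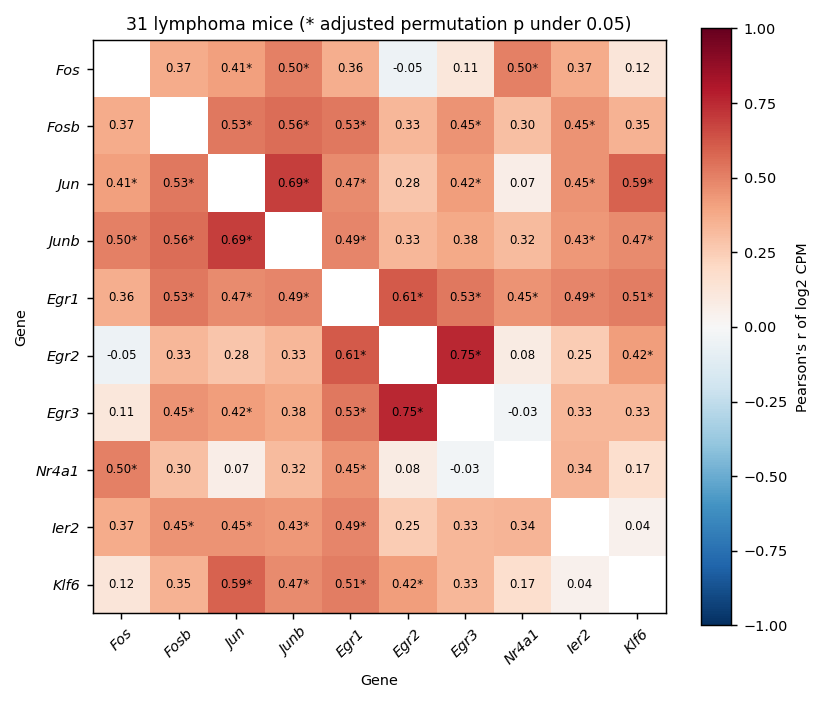
Pearson's r of log2 CPM between members over 31 lymphoma mice; colours run from -1 to 1 and stars mark an adjusted permutation p under 0.05. Egr2 with Egr3 (0.75) and Jun with Junb (0.69) are the strongest pairs, and Nr4a1 with Egr3 (-0.03) is near 0.

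The members were also set against 9 marker lists, the library total and the mitochondrial percent of each lymphoma, 110 relations in all, of which 4 passed. The share of all genes passing with the same measures was not computed, so nothing particular to these members is read from them. Jun rose with the mitochondrial percent (r = 0.64, permutation p = 8e-05, adjusted p = 0.0088; rho = 0.57, permutation p = 0.00109, adjusted p = 0.019), with macrophage and myeloid markers (r = 0.61, permutation p = 0.00024, adjusted p = 0.0132; rho = 0.56, permutation p = 0.00143, adjusted p = 0.0197) and with fibroblast markers (r = 0.57, permutation p = 0.00064, adjusted p = 0.0235; rho = 0.51, permutation p = 0.0041, adjusted p = 0.0451). Klf6 rose with macrophage and myeloid markers (r = 0.56, permutation p = 0.00097, adjusted p = 0.0267; rho = 0.54, permutation p = 0.0019, adjusted p = 0.0232). Without the 2 farthest mice these r were 0.58, 0.52, 0.41 and 0.60, and as deviations from group means 0.61, 0.61, 0.61 and 0.56. Tumour 266, with the highest Jun (77.1 CPM), also had the highest macrophage and fibroblast sums of the treated p53+/- group, 2063 and 2538 CPM. By Spearman's rho alone 6 further relations passed. Jun and Klf6 fell with T-lineage markers (rho = -0.59 and -0.56, adjusted permutation p = 0.0141 and 0.019, r = -0.32 and -0.35, adjusted permutation p = 0.305 and 0.251). Egr2 and Egr3 rose with B-lineage markers (rho = 0.62 and 0.63, adjusted permutation p = 0.0141 for both, r = 0.40 and 0.48, adjusted permutation p = 0.217 and 0.0896). The others were Junb with B-lineage markers and Klf6 with the mitochondrial percent (rho = 0.59 for both, adjusted permutation p = 0.0141 for both). Without tumour 881 the 4 relations that passed by r also passed, and so did 4 others over 30 mice. Egr2 had r = -0.59 with T-lineage markers (permutation p = 0.0013, adjusted p = 0.024; rho = -0.27, permutation p = 0.149, adjusted p = 0.546; -0.40 with 881), and Klf6 had r = -0.55 with the same markers (permutation p = 0.00131, adjusted p = 0.024; rho = -0.57, permutation p = 0.00138, adjusted p = 0.0253; -0.35 with 881). Klf6 had r = 0.52 with the mitochondrial percent (permutation p = 0.00301, adjusted p = 0.0414; rho = 0.59, permutation p = 0.00086, adjusted p = 0.0237), and Junb had r = 0.53 with B-lineage markers (permutation p = 0.00301, adjusted p = 0.0414; rho = 0.55, permutation p = 0.00175, adjusted p = 0.0275), both with the same r when 881 was included. No member passed with the library total over the 31 mice. The part of other cells in the members' levels was not tested.

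Of 28 other immediate early genes tested, 7, 14 and 9 were called lower in untreated p53-/- and in treated p53-/- and p53+/- lymphomas and 1, 0 and 2 higher, with median log2 fold changes of -0.34, -0.89 and -0.44. These counts, and those of the 3 lists that follow, stand beside 17.5%, 26.7% and 25.3% of all genes called lower and 23.2%, 25.4% and 25.6% called higher, and nothing particular to a list was tested. Those named here had the largest changes in treated p53+/- lymphomas. Rhob, a small GTPase, fell, with log2 fold changes of -2.21, -2.24 and -2.37 in the 3 groups (edgeR adjusted p from 6.54e-08 to 2.47e-06). Zfp36, which binds AU-rich mRNAs and speeds their decay, fell, with log2 fold changes of -1.36, -2.45 and -1.76 (edgeR adjusted p from 1.23e-10 to 6.47e-06). Klf4 fell, with log2 fold changes of -2.04, -2.35 and -1.59 (edgeR adjusted p from 1.3e-05 to 0.000523), and Klf2, a factor of T-cell quiescence and migration, had -1.17, -2.29 and -1.74, past the threshold in the 2 treated groups (edgeR adjusted p = 0.000386 and 0.0021) and not in untreated p53-/- lymphomas (0.0766).

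Among 9 AP-1 partners, 2, 4 and 2 were called lower and 1 in each group higher. The higher one was Jdp2, a repressor that pairs with Jun, which rose by 2.32, 2.74 and 2.41 on the log2 scale (edgeR adjusted p from 5.86e-05 to 0.00108). Jund fell, with log2 fold changes of -1.29, -1.73 and -1.35 (edgeR adjusted p from 2.69e-05 to 0.00112). Fosl2 had -0.89, -1.63 and -1.29 and passed in the 2 treated groups.

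Of 15 upstream kinases and factors, 6, 4 and 5 were called higher and 1, 4 and 5 lower. Among those higher in treated p53+/- lymphomas, Rps6ka3 rose by 1.07 and Rps6ka1 by 0.89 (both RSK kinases) and Mapk8 (the stress kinase JNK1) by 1.06 on the log2 scale, with edgeR adjusted p from 7.06e-05 to 0.00232. Mapk8 rose by 0.96 in treated p53-/- lymphomas, while Rps6ka3 had 0.23 and did not pass (edgeR adjusted p = 0.489).

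Of 9 Egr partners and receptor-signal genes, 2, 4 and 4 were called lower and 0, 0 and 1 higher. Cd69, the early activation antigen, fell, with log2 fold changes of -2.55, -3.76 and -3.04 (edgeR adjusted p from 2.47e-06 to 0.000419). Cd5, whose surface level follows receptor signal in thymocytes, fell, with log2 fold changes of -1.46, -2.17 and -1.84 (edgeR adjusted p from 0.000403 to 0.0148). Nab2, a corepressor that Egr proteins induce and bind, had -0.28 in untreated p53-/- lymphomas (edgeR adjusted p = 0.654) and -1.69 and -1.47 in the treated groups (edgeR adjusted p = 0.00222 and 0.00355). Bcl2l11, the pro-apoptotic factor Bim, rose by 0.95 in treated p53+/- lymphomas (edgeR adjusted p = 0.00406). T-lineage markers were called lower for 3, 2 and 2 of 9 genes in the same comparisons, beside the 17.5%, 26.7% and 25.3% of all genes, and the part of cell composition in these lists was not tested.

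The genes whose levels over the 31 lymphomas were most like the mean of the 10 members' standardised log2 CPM, among 11086 other genes whose mean log2 CPM was 2 or more, were Plk3 (r = 0.78), Ypel3 (0.77), Zfp36 (0.73), Chst15, Crtc3 and B2m (0.71 each), Evi2a (0.70), and Cytip, Rere and Rxra (0.69 each). These r are a description, since the genes were picked for them. Of the 10, Zfp36 is on the list of other immediate early genes above.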

How the data were processed

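RNA of 81 libraries from 40 mice was sequenced, and the authors deposited RSEM expected counts per gene, not scaled between libraries; 14.25% of the values were not whole. The submitters' processing notes name CASAVA 1.8, fastp, STAR 2.7.2b, RSEM 1.1.17 and the build mm10; strandedness and filters are not given in the sources used here. The deposited expected counts were rounded and the biopsies of a mouse were summed, so that the mouse was the replicate. Of the gene IDs 99.63% matched GENCODE M21.

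Groups came from the labels. The main test was edgeR 4.0.16 (quasi-likelihood, TMM scaling, filterByExpr, robust) in R 4.3.3 with labelled sex as a covariate, with 1 fit for the comparisons with normal thymus and 1 among lymphomas, and Benjamini-Hochberg adjustment over all genes tested at 0.05. The fits, variance shares and correlations were tested on simulated data. Levels for variance and correlation were log2 CPM with a prior count of 2, and permutation p-values used 100000 two-sided resamples. Alternatives were DESeq2 1.42.0, limma 3.58.1 (voom with correlated libraries of a mouse), other scalings, filters, covariates and sample sets, and leaving out each mouse. Those leaving out tumour 881, or 387 and 881, and each lymphoma mouse in the fit with normal thymuses, were chosen after seeing the data. All 10 members were named, with up to 4 genes per list, those called with the largest change in treated p53+/- lymphomas, and the 10 most alike genes. A gene that this rule names is not reported here. The members and lists were chosen with earlier results of these data known. The p-values measure the spread between these mice.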

Additional observations from a re-analysis of the deposited data

Results flagged for a closer look

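Each member was examined for a sample far from the others in each multifocal tumour and in each group of mice except the 12 treated p53+/- lymphomas. That group is too large for the method. The measure was the gap to the nearest neighbour over the whole range, on log2 CPM with a prior count of 2, while the values below are CPM. Of 160 such sets 2 held only counts of 0 (Fosb and Egr3 in tumour 857), 10 had such a sample, 3 among mice and 7 among biopsies, and chance gives about 1 in 20.

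Normal thymus 387 had Jun at 59.3 CPM against 15.3 to 25.7 CPM in the other 7 mice and Klf6 at 170 CPM against 61.6 to 103 CPM. Treated p53-/- tumour 857 had Fosb at 0 CPM against 0.126 to 0.519 CPM in the other 8; a count of 0 there allows up to 0.322 CPM, within the range of the others. In treated p53+/- tumour 884, biopsy 2 had Jun at 63.6 CPM (27.4 to 29.6 CPM in the other 3) and Fos at 2.53 CPM (8.01 to 9.59 CPM).

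Biopsy 7 of treated p53+/- tumour 905 had Fosb at 1.35 CPM against 0.661 to 0.766 CPM. Biopsy 3 of treated p53-/- tumour 870 had Egr2 at 0.477 CPM against 1.13 to 1.19 CPM. In untreated p53-/- tumour 899, biopsy 7 had Egr3 at 0.590 CPM against 0.267 to 0.318 CPM. Biopsy 5 of treated p53+/- tumour 903 had Egr3 at 0.207 CPM, from 3 counts, and the other 3 had 0, which allows up to 0.175 to 0.183 CPM; with 3 values tied at 0 the gap fills the whole range whatever the remaining value is, so nothing is read from it. In treated p53+/- tumour 862, biopsy 9 had Ier2 at 30.8 CPM against 15.4 to 18.8 CPM.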

How the results depend on the processing

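Against normal thymus, 3 members were called in untreated p53-/- lymphomas, and 5 with DESeq2 (also Fosb and Egr1), with limma voom over libraries and without the sex covariate (also Egr1 and Nr4a1). Multifocal tumours alone, with fewer mice, gave 2 there, and 8 and 4 (against 9 and 5) in the p53-/- and p53+/- groups given doxycycline. The cause was not tested. Leaving out a mouse gave 3 to 4 calls there, 8 to 9 in treated p53-/- and 5 to 6 in treated p53+/- lymphomas. Among lymphomas the count stayed at 0, except 1 (Ier2) with DESeq2. The share of all genes called under these alternatives is not given here, so nothing particular to the members is read from the counts. Correlated pairs numbered 23, whose smallest r was reached by 4.81% of all gene pairs, and 5 as deviations from group means (1.61%). There were 5 in single-biopsy and 1 in multifocal tumours, with fewer mice in both and no share over all gene pairs computed. The 4 relations with sample measures became 8 without tumour 881. The median share of variance between tumours was 72.4% to 77.7% when a biopsy was left out.

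The sign turned in these cases. Against normal thymus they were, in untreated p53-/- lymphomas, Fos -0.32, Egr3 0.33 and Ier2 0.18 in multifocal tumours and Jun 0.19 in single-biopsy tumours and 0.08 without mice 387 and 881, and in treated p53+/- lymphomas, without the same mice, Fos 0.27 and Jun 0.08. Leaving out a mouse gave -0.55 to 0.10 (Jun) and -0.22 to 0.06 (Ier2; 0.05 without mouse 857 and without mouse 98) in the former and -0.34 to 0.27 (Fos) and -0.47 to 0.09 (Jun) in the latter. Fos was 0.22 in treated against untreated p53-/- multifocal tumours. In treated p53+/- against untreated p53-/- lymphomas, multifocal tumours gave Fos 0.45, Fosb 0.02, Jun 0.71 and Klf6 0.21; voom gave Fosb 0.12, Jun 0.17 and Klf6 0.09; no sex covariate gave Fosb 0.01 and Jun 0.20; leaving out sex-discordant mice gave Jun 0.00; single-biopsy tumours gave Junb -0.04 and Egr2 0.09. Leaving out a mouse gave -0.24 to 0.04 (Fosb), -0.31 to 0.29 (Jun), -0.03 to 0.18 (Junb; -0.02 without mouse 908) and -0.01 to 0.57 (Nr4a1). No mouse had a total under 5000000 counts, so that alternative gave no value. No paired analysis was possible because each mouse has its own number. Fosb and Egr3 are limited by counts of 0.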
